A study of Mus musculus with 12 samples.

Results

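*Mybph*, the gene of myosin binding protein H, was described in isolated muscle fibers together with the 3 genes of its family that encode myosin binding protein C, *Mybpc1*, *Mybpc2* and *Mybpc3*. These 4 genes, of 55367 gene symbols in the expression files, were taken by their symbols. *Mybph* was selected on its measured TPM, which was high in one kind of aged fiber, so its values in comparisons with those fibers are given as a description without a test, and the other 3 genes were added as its relatives. The fibers came from the extensor digitorum longus (EDL), a fast muscle of the lower leg, of C57BL/6J mice. RNA was sequenced in 12 samples, with 4 from young mice (3 to 4 months) and 8 from aged mice (26 to 28 months). The aged fibers had been loaded with Fluo-4, a dye that fluoresces when it binds Ca2+, and were separated by eye under a fluorescence microscope into fibers with ordinary staining (Fluo-4 normal, 4 samples) and fibers with raised staining (Fluo-4 abnormal, 4 samples). How many fibers or mice went into a sample is not given in the sources used here, so the p-values measure the spread between these samples, which may be partly technical.

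The myosin binding proteins lie along the thick filament of the sarcomere, the repeating contractile unit of striated muscle, in the part of the A band where they form regular stripes. Myosin binding protein C is built of immunoglobulin and fibronectin domains, binds the tail and the neck of myosin, titin and actin, and slows or eases the swing of the myosin heads depending on its phosphorylation. *Mybpc1* encodes the slow form, which fast fibers also contain, *Mybpc2* the fast form and *Mybpc3* the form of the heart. *Mybph* encodes a shorter relative that resembles the end of myosin binding protein C that anchors to the filament.

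In the GENCODE M39 annotation of GRCm39, *Mybph* lies on chromosome 1 from 134121171 to 134132301 on the plus strand, with 10 exons in its canonical transcript and an open reading frame of 483 codons. *Mybpc1* lies on chromosome 10 from 88354062 to 88441175 on the minus strand (27 exons, 1139 codons). *Mybpc2* lies on chromosome 7 from 44150793 to 44174153 on the minus strand (28 exons, 1136 codons). *Mybpc3* lies on chromosome 2 from 90948489 to 90966861 on the plus strand (34 exons, 1113 codons). The coding sequences of the 4 genes matched at 55.4% to 61.7% of aligned bases, and the longest run of identical bases between any pair was 21 nt, so reads of one member are told apart from those of another.

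The 250 bases before the annotated start of the canonical transcript are shown for the 3 members that were expressed, because their levels are compared below. They are written 5′ to 3′ on the gene's own strand, and capitals mark E-boxes (CANNTG, the binding motif of the MyoD family of muscle regulators) and a TATA box (TATAA).

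Mybph, GRCm39 chr1:134120921-134121170, plus strand: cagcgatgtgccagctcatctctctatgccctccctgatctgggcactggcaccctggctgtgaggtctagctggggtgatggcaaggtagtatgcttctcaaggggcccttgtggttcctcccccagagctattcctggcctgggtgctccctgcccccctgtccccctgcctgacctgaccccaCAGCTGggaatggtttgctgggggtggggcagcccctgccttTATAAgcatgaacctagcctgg
Mybpc1, GRCm39 chr10:88441176-88441425, minus strand: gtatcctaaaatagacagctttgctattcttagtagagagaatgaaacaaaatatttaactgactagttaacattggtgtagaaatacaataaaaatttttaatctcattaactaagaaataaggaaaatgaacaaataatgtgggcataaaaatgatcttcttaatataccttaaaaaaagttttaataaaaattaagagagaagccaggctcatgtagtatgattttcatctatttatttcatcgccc
Mybpc2, GRCm39 chr7:44174154-44174403, minus strand: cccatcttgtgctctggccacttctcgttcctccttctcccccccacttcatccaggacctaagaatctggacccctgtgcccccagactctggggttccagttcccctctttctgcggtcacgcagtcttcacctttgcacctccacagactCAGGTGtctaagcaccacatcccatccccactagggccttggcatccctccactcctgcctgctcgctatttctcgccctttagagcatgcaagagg

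The *Mybph* window held 1 E-box (CAGCTG) from -64 to -59 and the TATA box from -22 to -18, counted from the base before the start. The *Mybpc2* window held 1 E-box (CAGGTG) from -97 to -92 and no TATA box. The *Mybpc1* window held neither motif, and its GC content of 26.4% was far below those of *Mybph* (62.0%) and *Mybpc2* (58.0%) and below the median of 53.2% over all windows. The *Mybpc3* window held 3 E-boxes and 1 site of the muscle factor MEF2, which the other members lacked. Searched on both strands for the E-box and the MEF2 site and on the gene's strand for TATAA, the same windows of 21757 protein-coding genes held an E-box in 64.8%, a MEF2 site in 2.79% and TATAA in 15.8% of cases. These matches describe the letters of the windows only.

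Levels are given in TPM, the share of transcripts per 1000000 after correction for transcript length, as the authors deposited them. Depth was not recoverable from them, so counting error is not part of any error given here. From 16841 to 17936 genes were detected per sample. The fibers were of the fast IIb type by their myosin. *Myh4*, the heavy chain of type IIb fibers, made up 93.7% to 99.7% of the summed TPM of *Myh1*, *Myh2*, *Myh4* and *Myh7*, and *Myh7*, the slow chain, did not exceed 0.205 TPM. Its share was 96.9% to 98.6% in young fibers, 93.7% to 99.2% in Fluo-4 normal fibers and 98.9% to 99.7% in those with raised staining. Since a sample may hold several kinds of fiber, fewer fibers of a type and less RNA per fiber cannot be told apart. Differences were tested with limma on log2(TPM + 1) in a fit of all 12 samples, adjusted over 14428 genes, namely those that code for proteins or lie on the mitochondrial genome and averaged at least 0.02 TPM in some group. Adding 1 shrinks the differences of low genes. Of the 4 members, 3 passed that filter and *Mybpc3* did not.

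*Mybpc2* was the most abundant member in all 12 samples, followed by *Mybpc1*, *Mybph* and *Mybpc3* in that order. The lowest *Mybpc2* sample of each group lay above the highest *Mybpc1* sample of that group, and the same held for *Mybpc1* over *Mybph*. By mean TPM over the samples, *Mybpc2* ranked 47, *Mybpc1* 89 and *Mybph* 949 among the tested genes. *Mybpc3* was listed at 0 in all 12 samples. The heart muscle markers *Tnni3* and *Myl7* were likewise at 0 in all 12 samples, and the heart muscle list summed to 0.38 to 3.11 TPM. *Mybphl*, a further relative of *Mybph* that was no member, lay between 0 and 0.902 TPM.

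**Figure D1:**
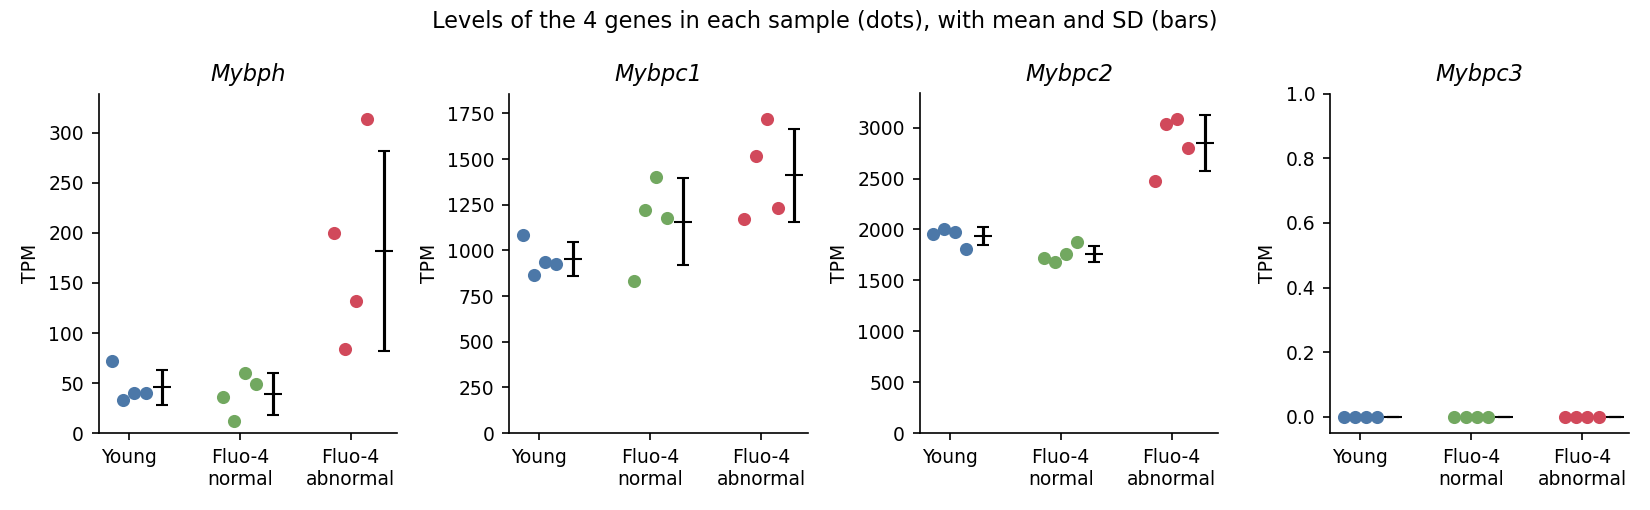
TPM of Mybph, Mybpc1, Mybpc2 and Mybpc3 (vertical axes, each with its own range) in the 12 samples, with 1 dot per sample in the order of the replicate numbers and a bar for the mean and SD of each group (n = 4). The Fluo-4 abnormal samples lie above all others for Mybph (from 83.7 TPM) and Mybpc2 (from 2477 TPM), overlap the Fluo-4 normal samples for Mybpc1, and Mybpc3 is at 0 throughout.

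*Mybph* was at 199.5, 83.7, 132 and 314 TPM in Fluo-4 abnormal replicates 1 to 4. It was at 36.0, 11.8, 60.2 and 49.3 TPM in the Fluo-4 normal samples and at 71.8, 32.6, 39.9 and 39.7 TPM in the young samples, in the same order. Every abnormal sample was above every other sample, with a gap between the lowest abnormal sample and the highest of the others, which was the first young sample. The group means were 182 ± 99.8 TPM (SD, n = 4) in the abnormal, 39.3 ± 20.9 TPM (SD, n = 4) in the normal and 46.0 ± 17.5 TPM (SD, n = 4) in the young fibers. The mean of the abnormal fibers was 4.64 times that of the normal and 3.96 times that of the young fibers. These are the values for which the gene was chosen. On the log2(TPM + 1) scale the difference from the normal fibers was 2.23, the 4th largest rise among the 14428 genes, and the difference from the young fibers was 1.86, the 21st largest. Between the abnormal and the normal fibers 11.5% of all tested genes were higher without overlap of the groups, and between the abnormal and the young fibers 12.2%.

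The spread of *Mybph* between samples of a group was wider than that of its relatives. Its coefficient of variation was 38.1% in the young, 53.1% in the normal and 54.8% in the abnormal fibers. That of *Mybpc1* was 9.76%, 20.6% and 18.1% in the same groups, and that of *Mybpc2* 4.45%, 4.68% and 9.74%. In the abnormal fibers the highest *Mybph* sample was 3.75 times the lowest, and in the normal fibers 5.12 times. Between the Fluo-4 normal and the young fibers the *Mybph* level was not shown to differ, with a log2 difference of -0.37 (standard error 0.47, 95% interval -1.38 to 0.63, adjusted p = 0.80 from limma). Both groups served as the reference when the gene was picked. Without replicate 2 of the normal fibers, which had the lowest value of all samples, this difference was 0.11.

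*Mybpc2*, the fast form, was at 2477, 3034, 3088 and 2803 TPM in the 4 Fluo-4 abnormal samples. It was at 1720, 1683, 1763 and 1873 TPM in the Fluo-4 normal samples and at 1960, 2009, 1972 and 1813 TPM in the young samples. All abnormal samples were above all samples of both other groups, whereas the normal and the young samples overlapped. From a mean of 1760 ± 82.4 TPM (SD, n = 4) in the normal fibers it rose to 2850 ± 278 TPM (SD, n = 4) in the abnormal fibers, 1.62 times as high. The log2 change was 0.69 (standard error 0.08, 95% interval 0.52 to 0.86, adjusted p = 0.00052 from limma). Against the mean of 1938 ± 86.3 TPM (SD, n = 4) in the young fibers, the log2 change of the abnormal fibers was 0.55 (standard error 0.08, adjusted p = 0.0012). The normal fibers were not shown to differ from the young fibers, with a log2 difference of -0.14 (standard error 0.08, 95% interval -0.31 to 0.03, adjusted p = 0.50).

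*Mybpc1*, the slow form, was at 1171, 1514, 1721 and 1234 TPM in the abnormal, at 831, 1223, 1400 and 1177 TPM in the normal and at 1086, 867, 939 and 928 TPM in the young samples. The abnormal and the normal samples overlapped, and the abnormal samples lay above all young samples. The means were 1410 ± 255 TPM (SD, n = 4) in the abnormal, 1158 ± 238 TPM (SD, n = 4) in the normal and 955 ± 93.2 TPM (SD, n = 4) in the young fibers. Against the normal fibers the log2 difference of the abnormal fibers was 0.29 (standard error 0.15, 95% interval -0.04 to 0.62, adjusted p = 0.26 from limma). With the replicate number of the aged samples as a block, the same difference had a standard error of 0.08 and an adjusted p of 0.033. Against the young fibers *Mybpc1* rose by a log2 change of 0.55 (standard error 0.15, 95% interval 0.22 to 0.88, adjusted p = 0.043). This call was lost in 4 of 11 other settings and in 9 of 12 fits without 1 sample, with adjusted p-values up to 0.135 and 0.128. It remained only without Fluo-4 normal replicate 1 or 3 or Fluo-4 abnormal replicate 1. The normal fibers were not shown to differ from the young fibers (log2 difference 0.26, standard error 0.15, 95% interval -0.07 to 0.59, adjusted p = 0.53).

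Of the Mybpc genes, 1 was thus called between the abnormal and the normal fibers and 2 between the abnormal and the young fibers, both comparisons sharing the abnormal samples. Over all tested genes, 9.35% were called in the first comparison and 8.5% in the second, and 7.36% and 6.09% were called higher. In the first comparison 1.99% were called lower. Between the normal and the young fibers 0 Mybpc genes were called by limma (0 at an unadjusted p under 0.05), against 1.15% of all tested genes. The median log2 change of all tested genes was 0.10 in the first and 0.07 in the second comparison, and each member's change is read against it.

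**Figure D2:**
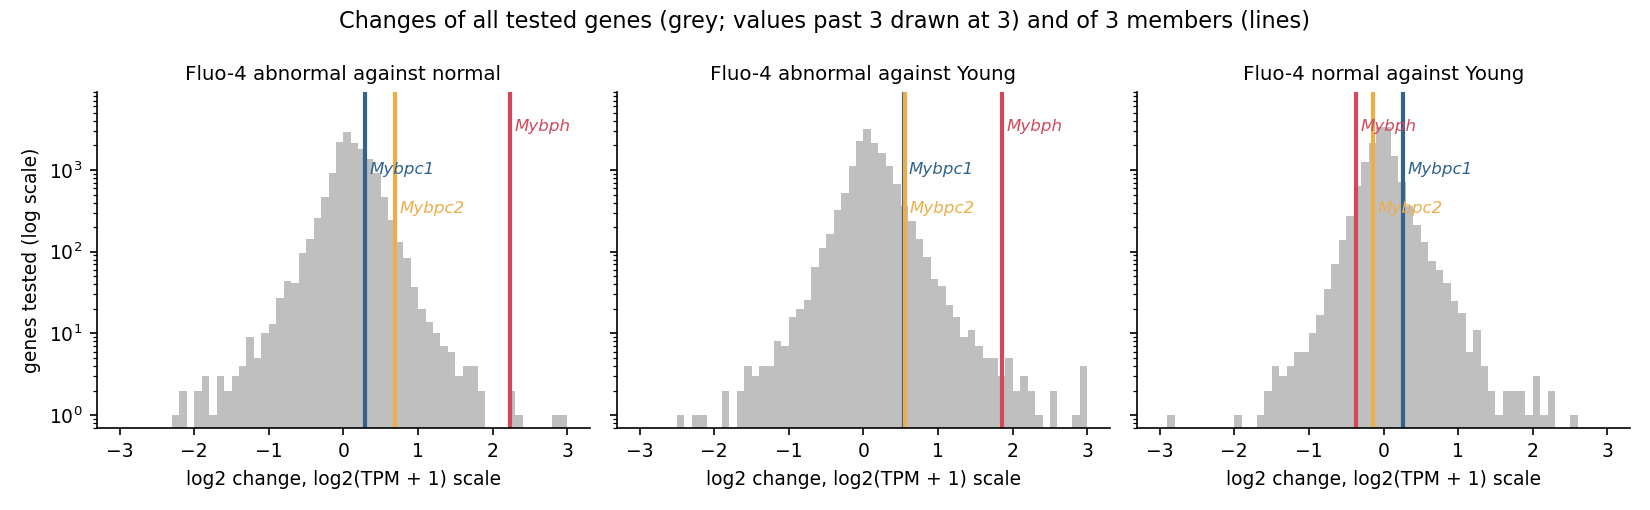
Number of tested genes (vertical axis, log scale) by log2 change on the log2(TPM + 1) scale (horizontal axis) in the 3 comparisons, with lines at the changes of Mybph, Mybpc1 and Mybpc2. Mybph lies at 2.23 and 1.86 in the comparisons with the abnormal fibers, far from the bulk of the genes, and at -0.37 between the normal and the young fibers.

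The aged samples carry shared replicate numbers, and same-numbered samples deviated together over many genes, so that they were also read as pairs. In pairs 1 to 4 the abnormal sample had 5.54, 7.12, 2.20 and 6.38 times the *Mybph* level of the normal sample. For *Mybpc2* the 4 ratios were 1.44, 1.80, 1.75 and 1.50, and for *Mybpc1* 1.41, 1.24, 1.23 and 1.05. All 3 genes were higher in the abnormal sample of each pair. The order of the pairs differed between the genes, with pair 3 the lowest for *Mybph*, pair 1 for *Mybpc2* and pair 4 for *Mybpc1*.

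**Figure D3:**
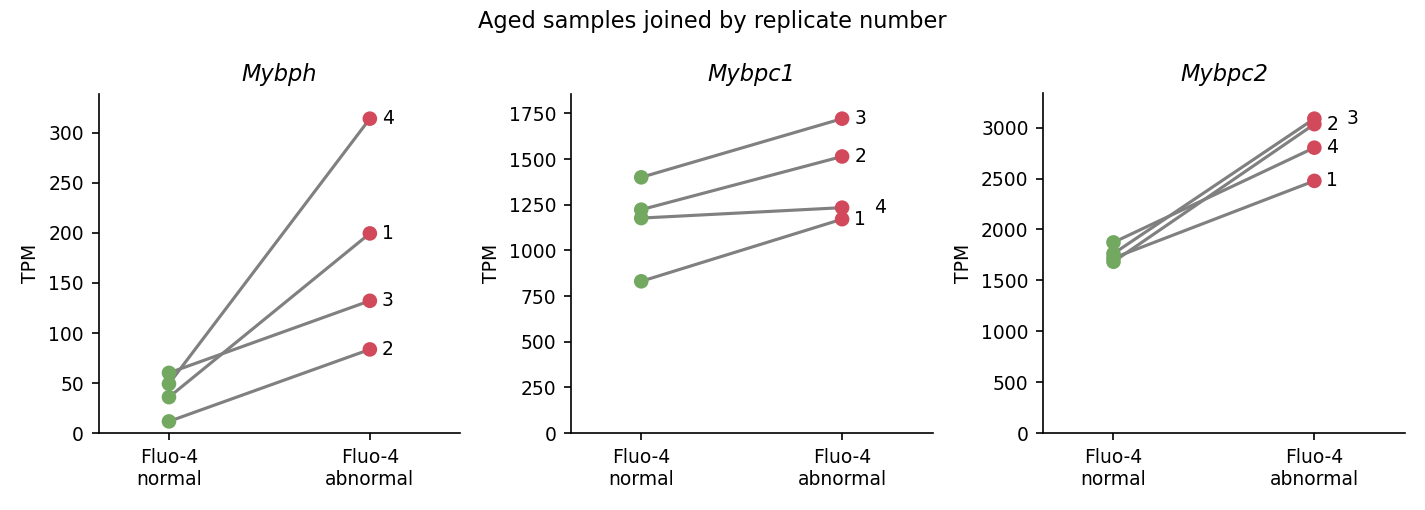
TPM of Mybph, Mybpc1 and Mybpc2 (vertical axes) in the 8 aged samples, normal at left and abnormal at right, with a line joining samples of the same replicate number, which is printed at its right end. All 12 lines go up, most steeply for Mybph (2.20 to 7.12 times) and least for Mybpc1 (1.05 to 1.41 times).

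Summed, the 4 genes reached 2939 ± 140 TPM (SD, n = 4) in the young, 2957 ± 277 TPM (SD, n = 4) in the normal and 4443 ± 464 TPM (SD, n = 4) in the abnormal fibers. *Mybph* held 1.55 ± 0.52%, 1.31 ± 0.64% and 4.22 ± 2.46% (SD, n = 4 each) of this sum. Its share in the abnormal samples ran from 1.81% to 7.22%, and the lower end overlapped the other groups, whose highest share was 2.30%.

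*Mybpc2* exceeded *Mybpc1* by a ratio of 2.04 ± 0.22 (SD, n = 4) in the young, 1.57 ± 0.36 (SD, n = 4) in the normal and 2.05 ± 0.20 (SD, n = 4) in the abnormal fibers. The ratio within a sample does not depend on how samples are scaled. In the normal fibers it was 2.07, 1.38, 1.26 and 1.59 in replicates 1 to 4, so that replicate 1 lay among the samples of the other groups and the remaining 3 lay below all of them. The log2 ratio of *Mybpc1* to *Mybpc2* was 0.40 lower in the abnormal than in the normal fibers (two-sided exact permutation test, p = 0.086, adjusted p = 0.13 over 3 comparisons). Normal fibers exceeded young fibers by 0.40 in this ratio (p = 0.086, adjusted p = 0.13, same exact test). The abnormal and the young fibers differed by -0.0024 (p = 0.97, same exact test). Without replicate 1 of the normal fibers the first differences were -0.54 and 0.54 (p = 0.029 each, adjusted p = 0.043, same exact test), where 0.029 is the smallest p these samples allow. In each of these comparisons it was the only 1 of 8 tests without 1 sample that passed. The others had adjusted p-values from 0.13 to 0.26 (same exact test). Normal replicate 1 also had a *Myh4* share of 99.2%, against 93.7%, 95.2% and 96.9% in the other normal samples. The part of this share in the ratio was not tested.

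Set beside the myosin heavy chains, *Mybpc1* and *Mybpc2* together reached 29.5 ± 2.30 TPM (SD, n = 4) per 100 TPM of *Myh1*, *Myh2*, *Myh4* and *Myh7* in the young, 34.8 ± 4.51 (SD, n = 4) in the normal and 32.9 ± 2.82 (SD, n = 4) in the abnormal fibers. The abnormal samples lay between 30.6 and 36.6 and within the range of the normal samples, 30.7 to 40.5, but for 1 sample just below it. The summed myosin itself was at 8552 ± 1689 TPM (SD, n = 4) in the normal and 13100 ± 2509 TPM (SD, n = 4) in the abnormal fibers.

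**Figure D4:**
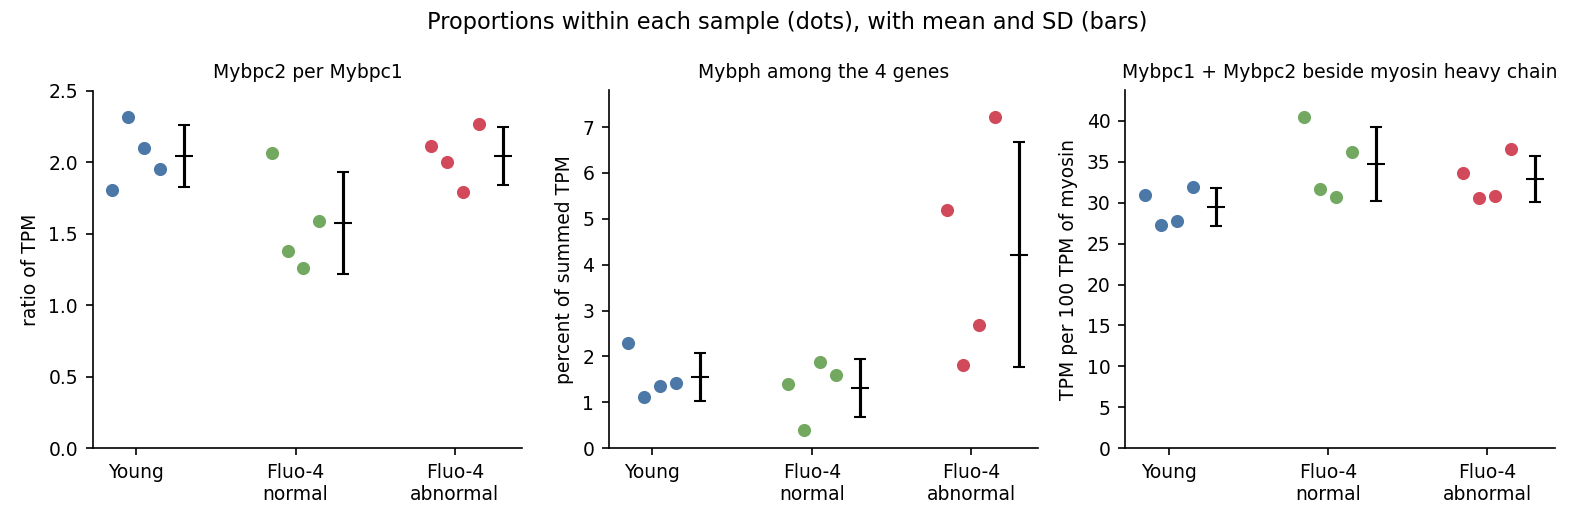
Ratio of Mybpc2 to Mybpc1 TPM, share of Mybph in the summed TPM of the 4 genes in percent, and summed Mybpc1 and Mybpc2 TPM per 100 TPM of Myh1, Myh2, Myh4 and Myh7, with 1 dot per sample and a bar for the mean and SD of each group (n = 4). The Fluo-4 normal replicates 2 to 4 have the lowest Mybpc2 to Mybpc1 ratios (1.26 to 1.59), and the abnormal samples spread from 1.81% to 7.22% in their Mybph share.

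Over the 12 samples the members varied together only in part. Pearson's r of log2(TPM + 1) was 0.77 between *Mybph* and *Mybpc2*, 0.43 between *Mybph* and *Mybpc1* and 0.64 between *Mybpc1* and *Mybpc2*. Taken as deviations from the group means, r was -0.09 for both pairs with *Mybph* and 0.51 between *Mybpc1* and *Mybpc2*. These are descriptions of 12 samples that share their scaling and their grouping.

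Among 6347 tested genes with a mean of at least 5 TPM in some group, those most like *Mybph* over the 12 samples were *Grb10* (r = 0.91), an adaptor of insulin receptor signalling, *Ddx49* (r = 0.91), an RNA helicase, and *Sec61b* (r = 0.91), a subunit of the channel through which proteins enter the endoplasmic reticulum. *Sec61b* was at 109, 100 and 131 TPM on average in the young, normal and abnormal fibers, a much smaller difference than that of *Mybph*. The genes most like *Mybpc1* were *Smyd2*, a lysine methyltransferase (r = 0.96), *Pnrc1*, a nuclear coregulator (r = 0.96), and *Retreg1*, a receptor for autophagy of the endoplasmic reticulum (r = 0.95). *Retreg1* averaged 138, 194 and 232 TPM in the young, normal and abnormal fibers and so had the same order of groups as *Mybpc1*. Those most like *Mybpc2* were *Usp20*, a deubiquitinase (r = 0.98), *Ctxn3* (r = 0.98) and *Oaz1*, an inhibitor of polyamine synthesis (r = 0.97). *Ctxn3* averaged 53.4, 40.6 and 150 TPM in the young, normal and abnormal fibers.

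The libraries keep no record of the strand, and 3 members overlap other genes on the opposite strand. *Adora1*, an adenosine receptor gene, overlaps *Mybph* over 5354 bp, and its transcripts share up to 2203 nt with those of *Mybph*. *Adora1* was at 0.447 to 1.04 TPM in the abnormal, 0.065 to 0.211 TPM in the normal and 0.098 to 0.298 TPM in the young samples. The log2 difference between the abnormal and the normal fibers was 0.57. Within each sample *Adora1* stood at 0.296% to 0.589% of the *Mybph* level, and reads of the shared sequence cannot be told apart by strand. Its difference is therefore given as a description without a test, as for *Mybph*, which was chosen for its rise. *Gm44646*, a non-coding gene, overlaps *Mybpc2* over 2578 bp and was at 10.0 to 12.1 TPM in the abnormal and 3.31 to 6.11 TPM in the normal samples. *Gm48752* overlaps *Mybpc1* over 2842 bp and was at 5.58 to 8.99 TPM in the abnormal and 7.09 to 13.5 TPM in the normal samples.

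Of 22 tested protein-coding genes within 100 kb of a member, 3 were called between the abnormal and the normal fibers, all of them higher. Over all tested genes 9.35% were called in this comparison, and 7.36% were called higher. The 3 were *Adora1*, which went with the chosen *Mybph* and is no separate test, *Ppfia4* and *Psmc3*. *Myog*, the muscle regulator myogenin, lies 85405 bp from *Mybph* and averaged 1.90 TPM in the abnormal and 2.52 TPM in the normal fibers (log2 difference -0.29, adjusted p = 0.47 from limma). *Ppfia4*, 90867 bp from *Mybph*, averaged 0.387 TPM in the abnormal and 0.113 TPM in the normal fibers (log2 change 0.31, adjusted p = 0.041 from limma). Its samples ran from 0.161 to 0.581 TPM and from 0.085 to 0.154 TPM in these groups. The precision of such low values could not be judged, because read depth is unknown. *Chpt1*, an enzyme of phosphatidylcholine synthesis 14032 bp from *Mybpc1*, averaged 98.1 and 101 TPM in the same groups (log2 difference -0.04, adjusted p = 0.78). *Emc10*, a subunit of the membrane protein insertion complex of the endoplasmic reticulum, lies 4839 bp from *Mybpc2* and averaged 40.4 and 35.5 TPM (log2 difference 0.18, adjusted p = 0.18). *Psmc3*, a proteasome subunit 51774 bp from the silent *Mybpc3*, rose from 218 to 285 TPM on average (log2 change 0.38, adjusted p = 0.013).

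The other proteins of the thick filament, the M-band that links thick filaments and the factors that assemble myosin were represented by 29 genes. Between the abnormal and the normal fibers 4 of the 29 rose and 0 fell, and 25 did not pass, with a median log2 change of 0.29 against 0.10 for all tested genes. Over all tested genes 7.36% were called higher and 1.99% lower in this comparison. Against the young fibers 3 of the 29 were called higher and 1 lower, where 6.09% of all tested genes were called higher. In that comparison 348 of the 14428 tested genes were called lower. *Myh4* rose from 8206 to 13010 TPM on average (log2 change 0.66, adjusted p = 0.020 from limma), and the young fibers were at 9648 TPM. *Trim54*, a ubiquitin ligase of the sarcomere, had a log2 change of 0.38 (adjusted p = 0.017). *Myom2* and *Myom3*, which encode myomesins of the M-band, had log2 changes of 0.46 (adjusted p = 0.019) and 0.70 (adjusted p = 0.043). *Myh1*, the heavy chain of type IIx fibers, averaged 76.1 TPM in the abnormal, 334 TPM in the normal and 206 TPM in the young fibers, with a log2 difference between abnormal and normal fibers of -1.81 (adjusted p = 0.087). *Myh2*, the chain of type IIa fibers, averaged 5.67, 11.7 and 8.96 TPM in the same order. Without Fluo-4 abnormal replicate 2 the count of the list was 0, without replicate 3 it was 2, and with the replicate block it was 12. Of all 14428 tested genes 606, 900 and 2281 were called in these 3 fits, against 1349 in the main fit.

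Of 19 tested genes of the thin filament, 2 rose and 1 fell, with a median of 0.18. Of all tested genes 7.36% were called higher and 1.99% lower. Against the young fibers 3 of the 19 were called higher and 1 lower, where 6.09% of all tested genes were called higher. In that comparison 348 of the 14428 tested genes were called lower. The tropomyosin genes moved in opposite directions, *Tpm1* by 0.70 (adjusted p = 0.0024 from limma) and *Tpm2* by -0.48 (adjusted p = 0.0041). *Tmod1*, which caps the filament's pointed end, rose by 0.43 (adjusted p = 0.021). The count of this list was 5 without Fluo-4 abnormal replicate 4 and 8 with the replicate block. Of all 14428 tested genes 951 and 2281 were called in these fits, against 1349 in the main fit.

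Kinases and phosphatases that act on myosin binding protein C, or belong to families that do, were represented by 20 genes. Of these 6 rose and 0 fell, with a median of 0.34, where 7.36% of all tested genes were called higher and 1.99% lower. Against the young fibers 2 of the 20 were called higher and 0 lower, where 6.09% of all tested genes were called higher. In that comparison 348 of the 14428 tested genes were called lower. The phosphatase subunit *Ppp1ca* rose by 0.30 (adjusted p = 0.015 from limma), and the Ca2+/calmodulin-dependent kinase genes *Camk2b* and *Camk2a* by 0.71 (adjusted p = 0.024) and 0.49 (adjusted p = 0.026). *Camk2a* was at 125 TPM on average in the young, 80.3 TPM in the normal and 113 TPM in the abnormal fibers. The count of 6 became 2 without Fluo-4 normal replicate 1, 2 or 4 or Fluo-4 abnormal replicate 3, and 0 without Fluo-4 abnormal replicate 2. With the replicate block it was 9. Of all 14428 tested genes 1349 were called in the main fit and 2281 with the block. Without these samples, in the same order, 934, 925, 983, 900 and 606 were called.

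Of 12 fast fiber genes 6 were called with the replicate block, where 2281 of all 14428 tested genes were called. In the main fit 3 rose and 0 fell, with a median of 0.16. These 3 were *Myh4*, *Casq1* (0.50, adjusted p = 0.0017 from limma), which stores Ca2+ in the sarcoplasmic reticulum, and *Actn3* (0.77, adjusted p = 0.0073), an actinin of the fast fiber's Z-disc. *Casq1* averaged 3238 TPM in the abnormal, 2284 TPM in the normal and 3665 TPM in the young fibers. Its abnormal samples lay below all young samples (log2 difference -0.18, adjusted p = 0.15 from limma). The normal fibers were called lower than the young fibers (-0.68, adjusted p = 0.0004 from limma). Of 10 slow fiber genes 1 was called higher and 0 lower, while 6 had a log2 difference above 0, and the median was 0.10. The called gene was *Atp2a2*, the slow Ca2+ pump, which rose from 2.02 to 4.86 TPM (0.95, adjusted p = 0.030 from limma). This call was lost without Fluo-4 normal replicate 2 and without Fluo-4 abnormal replicate 2. Of 14 genes known from denervated or embryonic muscle 2 rose, with a median of 0.32. *Musk*, a receptor kinase of the neuromuscular junction, was at 10.2 TPM on average in the abnormal, 3.15 TPM in the normal and 3.25 TPM in the young fibers (1.44, adjusted p = 0.0012). *Chrna1*, a subunit of the acetylcholine receptor, rose by 0.55 (adjusted p = 0.018 from limma). The counts of the fast, slow and denervation lists stand beside 7.36% of all tested genes called higher and 1.99% called lower. Against the young fibers 1, 0 and 2 genes of these lists were called higher, where 6.09% of all tested genes were.

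Rescaling of the samples by TMM-type factors, which centre the bulk of the genes on no change, moved these counts. With it the thick filament, kinase and fast fiber lists had 0 called genes, and the thin filament, slow fiber and denervation lists had 1 each. In all, 848 genes were then called between abnormal and normal fibers, 306 higher and 542 lower, against 1062 higher and 287 lower with the TPM as deposited. The change of *Mybpc2* was then 0.46 (adjusted p = 0.019 from limma) and that of *Mybph* 2.01, whereas the difference of *Mybpc1* was 0.07 (adjusted p = 0.86). With a replicate block and the *Myh4* share as a covariate, the change of *Mybpc2* between abnormal and normal fibers was 0.48 (adjusted p = 0.056), and 22 genes were called in all.

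**Figure D5:**
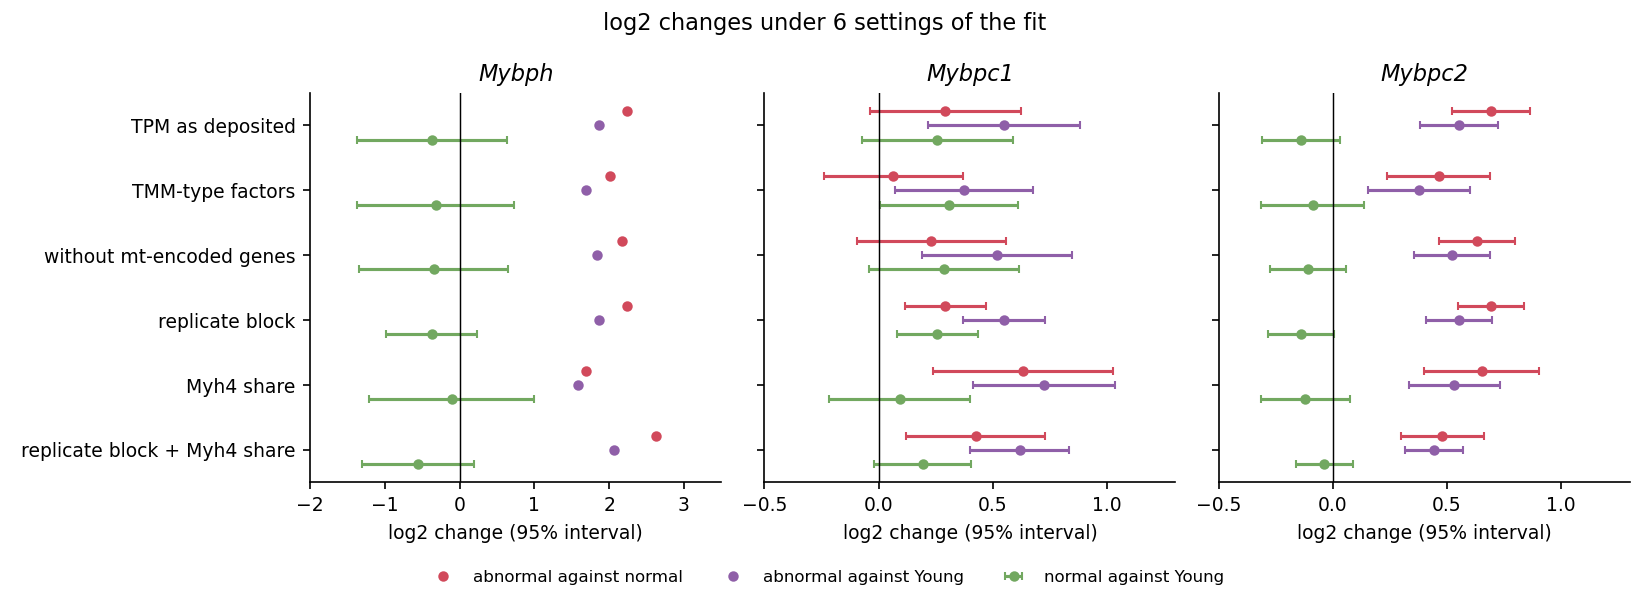
Log2 changes of Mybph, Mybpc1 and Mybpc2 (horizontal axes) in the 3 comparisons under 6 settings of the fit (rows), with 95% intervals. The points of Mybph against the abnormal fibers carry no interval because the gene was chosen for them. Mybpc2 lies right of 0 in both comparisons with the abnormal fibers in all 6 settings, and Mybpc1 against the normal fibers moves from 0.07 to 0.63.

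Markers of other cells were summed in each sample. The 6 immune markers summed to 2.63 to 5.71 TPM in the abnormal, 1.01 to 1.69 TPM in the normal and 0.794 to 1.98 TPM in the young samples. The sums of the abnormal samples lay above all others. Of this list *Cd3e* had the highest single value, 4.86 TPM in an abnormal sample, which was most of the sum of that sample. *Itgam* was at 0 in all 12 samples. The 5 Schwann cell markers summed to 3.63 to 7.98, 1.42 to 6.60 and 0.773 to 1.81 TPM in the same order. The 6 satellite cell markers summed to 18.5 to 32.3, 11.9 to 22.4 and 18.4 to 22.3 TPM. The 5 erythroid markers, mostly hemoglobin genes, summed to 44.4 to 236 TPM in the abnormal, 118.5 to 482 TPM in the normal and 33.1 to 121 TPM in the young samples, and in the normal samples every sum was above the highest *Mybph* value of that group. The 6 fibroblast markers summed to 13.6 to 63.8, 25.3 to 82.4 and 19.4 to 38.0 TPM in the same order, and the 6 smooth muscle and pericyte markers to 3.06 to 11.0, 4.75 to 21.2 and 4.33 to 49.8 TPM. The 6 endothelial markers summed to 2.89 to 9.49, 4.95 to 19.2 and 3.78 to 9.48 TPM. Of the 5 adipocyte markers 4 were at 0 in all 12 samples, and the list did not exceed 2.77 TPM. In the erythroid, fibroblast, smooth muscle and endothelial lists all 3 groups overlapped, whereas the Schwann cell sums of the abnormal samples lay above those of the young samples. The part of any of these lists in the results was not tested. The 6 muscle fiber markers summed to 70750 to 82500, 61270 to 74960 and 71890 to 73750 TPM.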

How the data were processed

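RNA of isolated EDL fibers was measured in 12 samples. The authors purified it with TRIzol, prepared libraries from 10 ng of total RNA with SMART-Seq v4, aligned the reads to GRCm39 (mm39) with DRAGEN 4.3 and deposited TPM values, with 1 file per sample. Which annotation release was used is not given in the sources used here. Each file listed 55487 entries by symbol, and 114 symbols on several lines were summed, leaving 55367. Of these, 49848 matched a GENCODE M39 name, 2527 a RefSeq name only and 116 a synonym, and 2876 matched none. Depth is unknown.

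Values were transformed to log2(TPM + 1) and fitted for the 3 groups with limma 3.58.1 (R 4.3.3) with a variance trend, with Benjamini-Hochberg adjustment over 14428 genes and a threshold of 0.05. Ratios within samples were compared by exact permutation over 70 arrangements. Tested on simulated data (14428 genes, 200 of them changed between abnormal and normal samples), the fit recovered 92% of 2-fold and 100% of 4-fold changes, and 7.69% of its calls were unchanged genes. The changed genes were drawn from those with a mean log2(TPM + 1) above 3, and the simulated noise was independent between samples. These rates therefore do not cover lower genes or samples that vary together. Over 3043 genes, abnormal and normal samples with the same replicate number departed from their group means together (r from 0.34 to 0.56, against -0.47 to 0.30 for different numbers). The aged samples were therefore taken as pairs in the fit with a replicate block, although the labels do not say what a number marks. Between aged and young samples r ran from -0.14 to 0.27 for the same number and from -0.29 to 0.35 for different numbers. Its upper end thus reached that of the weakest aged pair, 0.34. Transcripts were compared with BLAST 2.17.0 and MAFFT 7.526, and sequences were read from the GRCm39 genome. Figures were drawn with matplotlib 3.10.9.

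The members, gene lists, tests and alternatives were chosen with earlier results of these data known. Named genes are the members, for each the 3 tested genes with the highest correlation, from each list up to 3 genes with the smallest p in abnormal against normal fibers, *Myh1*, *Myh2*, *Myh4* and *Myh7*, and protein-coding genes within 100 kb of a member, of which a few are given. *Mybphl*, *Myom3*, the overlapping non-coding genes and the markers *Tnni3*, *Myl7*, *Itgam* and *Cd3e* were added after their values were seen. The alternatives were TMM-type factors, scaling without mitochondrially-encoded genes, a pseudocount of 0.1, no filter, a filter of 5 TPM, a replicate block, all annotated genes, sample weights, only the groups compared, the *Myh4* share as a covariate, that share with the block, and leaving out each sample.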

Additional observations from a re-analysis of the deposited data

How the results depend on the processing

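Between abnormal and normal fibers, 1 Mybpc gene was called in the main fit and in the 12 fits without 1 sample (lowest 1, highest 1), 2 with the replicate block and 0 with the replicate block plus the *Myh4* share. Between abnormal and young fibers the count of 2 became 1 with TMM-type factors, scaling without mitochondrially-encoded genes, no filter and all annotated genes, and it ran from 1 to 2 without 1 sample. Between normal and young fibers it was 0 throughout. In the order thick filament, thin filament, kinases and phosphatases, slow fiber, fast fiber, denervation, the list counts of 4, 3, 6, 1, 3 and 2 became 0, 1, 0, 1, 0 and 1 with TMM-type factors, 12, 8, 9, 1, 6 and 2 with the replicate block, and 0, 0, 0, 0, 1 and 0 with the replicate block plus the *Myh4* share. With only the groups compared, the thick filament, fast fiber and denervation counts were 1 each and the kinase and slow fiber counts 0. With no filter the thick filament and kinase counts were 1 and the slow fiber count 0. With a filter of 5 TPM the thick filament, thin filament and fast fiber counts were 10, 6 and 6 and the slow fiber count 0. That filter left 6348 tested genes, of which 1710 were called, 1419 higher and 291 lower. The thin filament count was 5 with the *Myh4* share, the kinase count 2 with scaling without mitochondrially-encoded genes, and the slow fiber count 0 with sample weights. Without 1 sample the 6 counts ran from 0 to 6, 2 to 5, 0 to 5, 0 to 1, 2 to 4 and 2 to 2. The causes of these shifts were not tested.

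The difference in the log2 ratio of *Mybpc1* to *Mybpc2* ran from -0.54 to -0.30 between abnormal and normal, from -0.065 to 0.056 between abnormal and young, and from 0.30 to 0.54 between normal and young fibers when 1 sample was left out. The difference between abnormal and young fibers turned positive without Young replicate 1 (0.056) or 4 (0.017) or without Fluo-4 abnormal replicate 1 (0.015) or 4 (0.050). With the replicate block, as sign flips of the 4 pairs, the difference between abnormal and normal fibers was -0.40 (exact p = 0.125, the smallest that 4 pairs allow). The *Mybph* difference between normal and young fibers ran from -0.64 (without Fluo-4 normal replicate 3) to 0.11 (without Fluo-4 normal replicate 2). The *Mybph* difference stayed positive in all alternatives run, from 1.69 to 2.63 against the normal and from 1.55 to 2.18 against the young fibers. Over all genes, 1349 were called between abnormal and normal fibers, 2281 with the replicate block, 848 with TMM-type factors, 850 with no filter, 820 with the *Myh4* share, 566 with only the groups compared and 22 with the replicate block plus the *Myh4* share. In that comparison, scaling without mitochondrially-encoded genes gave 961 calls and sample weights 1102, and fits without 1 sample gave 606 to 1420. Apart from those named here and in the report, the replicate block changed no call of a member. Read depth is unknown, so the precision of low values such as *Adora1* could not be judged.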
